A study of Mus musculus with 6 samples.

Results

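The genes described here encode the collagens and the other matrix proteins of the dermis, the connective tissue layer of skin. They are 43 genes chosen by name: 6 fibrillar collagen genes, 6 other collagen genes, 7 genes of small leucine-rich proteoglycans, 10 elastic fibre genes, 2 cross-linking enzyme genes, 9 matrix glycoprotein genes and 3 fibroblast surface genes. Every non-control probe carrying one of these names was taken, which gave 54 probes. After a filter on dim probes 42 of the 43 genes were measured, among 23670 genes in all. No probe was named for Col6a3, which encodes a chain of collagen VI. A probe was kept where 3 or more of the 6 arrays read it well above background, and this removed 1 member probe, a Vcan probe that no array measured above background. Of the 53 probes kept, 52 were well above background on all 6 arrays, so the filter left almost no member that had been detected in one group alone.

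Ear skin RNA of 6 mice was hybridised to one-colour Agilent arrays, each array holding 1 mouse. The control group (WT) was 3 mice labelled NC16A sufficient (WT 1, WT 2 and WT 3), and the test group (KO) was 3 mice labelled NC16A deficient (KO 1, KO 2 and KO 7). NC16A is a segment of BP180, the transmembrane collagen XVII that holds basal keratinocytes to the basement membrane, and its gene is Col17a1. The tissue was fresh, and the groups were matched for age and sex. Their strain, age, sex and litter and the way in which NC16A was removed are not given in the sources used here. Slide 1 carried all 3 WT arrays together with KO 1, and slide 2 carried KO 2 and KO 7. A comparison within slide 1 therefore rests on KO 1 alone, and it is given for each role class and for the members whose groups did not overlap.

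Fibrillar collagens (I, III and V) assemble into the rope-like fibrils that give dermis its tensile strength, and collagen V sits within the fibril and limits its width. Small leucine-rich proteoglycans such as decorin, lumican, fibromodulin and osteoglycin coat the fibril surface and space and size the fibrils. Elastic fibres are a separate network in which fibrillin microfibrils carry a core of cross-linked elastin, and dermal fibroblasts make most of these proteins.

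Scaled signal below means log2 of a gene's processed signal minus log2 of that array's 75th percentile, so a value of 0 is the array's own 75th percentile. It serves to compare a gene between arrays and not to compare genes, because probes differ in brightness. Differences are KO minus WT on this log2 scale, with the standard error (SE) of a limma fit over all genes. Passing means a limma adjusted p under 0.05, with Benjamini-Hochberg adjustment over 23670 genes. Between 72.6% and 78.2% of the spots of each array were well above background. The 75th percentile was 6656, 5276 and 5513 intensity units on WT 1, WT 2 and WT 3, and 4416, 4164 and 3806 on KO 1, KO 2 and KO 7. Every KO array was dimmer than every WT array by this measure, a mean log2 difference of -0.49. Nothing in the labels describes technical repeats, and each array is a separate mouse.

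Promoter sequences are shown for 6 genes as examples of the families compared: 3 fibrillar collagens with higher KO values, the small proteoglycan genes Ogn and Aspn of the same gene cluster, and Dpt, the gene that passed. They were chosen after the values were seen. Each is the 250 bases before the annotated start, 5′ to 3′, from RefSeq. Capitals mark, on either strand, TATAA (core of the TATA box), CCAAT (core of the box of that name) and GGGCGG (core of the GC box).
Col1a2 (GRCm38.p6, chr6:4505368-4505617, plus strand): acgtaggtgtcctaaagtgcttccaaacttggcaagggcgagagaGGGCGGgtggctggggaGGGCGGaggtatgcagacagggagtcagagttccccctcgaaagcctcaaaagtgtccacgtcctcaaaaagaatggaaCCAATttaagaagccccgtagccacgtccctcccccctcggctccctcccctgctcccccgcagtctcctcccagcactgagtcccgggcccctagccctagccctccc
Col3a1 (GRCm38.p6, chr1:45311288-45311537, plus strand): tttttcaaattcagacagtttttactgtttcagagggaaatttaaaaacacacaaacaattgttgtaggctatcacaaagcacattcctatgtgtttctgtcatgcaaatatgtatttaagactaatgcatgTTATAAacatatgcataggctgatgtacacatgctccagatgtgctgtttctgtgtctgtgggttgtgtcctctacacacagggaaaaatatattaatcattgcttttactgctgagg
Col5a1 (GRCm38.p6, chr2:27886175-27886424, plus strand): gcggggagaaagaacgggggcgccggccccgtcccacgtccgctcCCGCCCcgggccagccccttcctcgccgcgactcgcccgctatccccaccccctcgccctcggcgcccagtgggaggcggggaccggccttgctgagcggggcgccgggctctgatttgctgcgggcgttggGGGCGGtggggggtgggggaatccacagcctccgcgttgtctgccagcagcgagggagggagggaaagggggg
Ogn (GRCm38.p6, chr13:49607765-49608014, plus strand): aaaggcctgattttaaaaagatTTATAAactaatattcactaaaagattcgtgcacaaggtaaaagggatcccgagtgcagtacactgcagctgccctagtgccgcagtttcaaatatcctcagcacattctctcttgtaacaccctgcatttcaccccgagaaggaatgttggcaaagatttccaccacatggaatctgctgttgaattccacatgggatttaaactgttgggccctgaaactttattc
Aspn (GRCm38.p6, chr13:49544193-49544442, plus strand): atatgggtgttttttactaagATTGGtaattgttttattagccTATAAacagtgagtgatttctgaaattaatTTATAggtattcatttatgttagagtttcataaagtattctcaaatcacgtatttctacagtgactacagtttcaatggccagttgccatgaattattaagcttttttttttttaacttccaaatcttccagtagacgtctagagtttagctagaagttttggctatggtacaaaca
Dpt (GRCm38.p6, chr1:164796413-164796662, plus strand): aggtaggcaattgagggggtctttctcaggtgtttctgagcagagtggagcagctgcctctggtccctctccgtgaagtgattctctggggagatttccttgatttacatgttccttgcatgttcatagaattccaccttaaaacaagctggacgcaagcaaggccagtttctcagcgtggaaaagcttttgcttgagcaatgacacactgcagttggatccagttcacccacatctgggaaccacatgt
The Col1a2 window held a CCAAT beginning 109 bases before the start and GGGCGG at 205 and 188 bases. The Col3a1 window held TATAA and its reverse complement, overlapping each other and beginning 117 and 118 bases before the start. GGGCGG lay 73 bases before the start of Col5a1 on the plus strand, and its reverse complement lay 205 bases before it. The Ogn window held TATAA and its overlapping reverse complement at 227 and 228 bases. The Aspn window held TATAA at 207 bases, its reverse complement at 177 bases and a reverse CCAAT at 229 bases. None of these letters occurred in the Dpt window. RefSeq promoters were matched for 28 of the 43 genes. TATAA was present in 5 of the 28 (17.9%, against 23.5% of all 27025 promoters), CCAAT in 7 (25.0% against 34.5%) and GGGCGG in 12 (42.9% against 32.9%). The motif search describes letters only, and the 3 promoters of fibrillar collagens printed here share no motif that all of them hold.

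Of the 42 measured genes, 1 fell and none rose. Over all genes tested 2.37% passed in either direction, 1.98% higher and 0.389% lower in KO. At an unadjusted p under 0.05, limma gave 10 members higher and 8 lower, against 16.9% and 9.73% of all genes. The KO values lay wholly above the WT values for 10 of the 42 (23.8%, against 21.4% of all genes) and wholly below them for 9 (21.4%, against 14.1%). In total 25 members had a higher and 17 a lower KO mean, against 55.1% and 44.9% of all genes. Their median difference was 0.18, beside 0.05 for all genes. The differences ran from -1.18 for Dpt to 2.21 for Tnc. With array weights in the fit 10 members passed higher and 12 lower, as did 4546 and 3081 of all genes. Within slide 1 the members' median was -0.09, with KO 1 below the WT mean for 24 of 42 genes, where 50.4% of all genes were below.

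**Figure D1:**
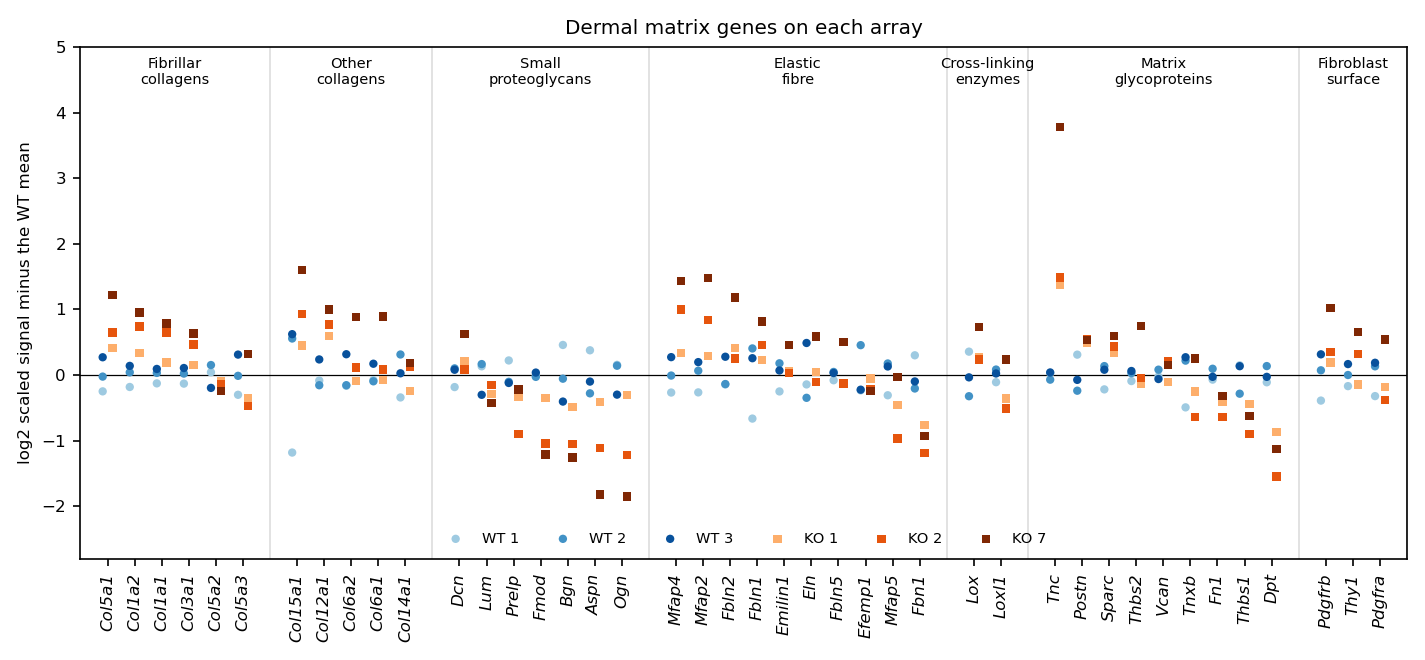
Log2 scaled signal of each of the 42 measured genes on each array, minus that gene's WT mean, by role class; circles are the 3 WT mice and squares the 3 KO mice. Small proteoglycan genes other than Dcn lie mostly below 0 in KO, Col1a1, Col1a2, Col3a1 and Col5a1 lie above all WT values, and the KO 7 point of Tnc is the farthest from 0.

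The fibrillar collagens divided into 4 genes with higher KO values and 2 without, and none passed. Their median difference was 0.48, and 0.17 within slide 1. Col1a1, which encodes the main chain of collagen I, had scaled signals of 5.37, 5.53 and 5.59 in WT 1, WT 2 and WT 3, and of 5.68, 6.14 and 6.28 in KO 1, KO 2 and KO 7. All 3 KO values were above the WT values, and KO 1 was the nearest to them. The difference was 0.54 (SE 0.19, limma adjusted p 0.141). Col1a2, the other chain of collagen I, had 6.08, 6.31 and 6.41 in WT and 6.60, 7.005 and 7.22 in KO. It kept the same order without overlap, a difference of 0.67 (SE 0.20, limma adjusted p 0.11). Col3a1, which encodes the collagen III of pliable dermal fibrils, had 5.40, 5.55 and 5.64 in WT and 5.69, 5.99 and 6.16 in KO. The KO 1 value exceeded the highest WT value by a small margin, and the difference was 0.42 (SE 0.17, limma adjusted p 0.173).

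The 3 collagen V genes had differences of both signs, none of which passed, and the difference between them was not tested. Col5a1 had scaled signals of 1.9997, 2.22 and 2.52 in WT and 2.66, 2.90 and 3.46 in KO, a difference of 0.76 (SE 0.25, limma adjusted p 0.13). It was the largest difference among the fibrillar collagens and the groups did not overlap. Col5a2 had -0.10, 0.01 and -0.34 in WT and -0.24, -0.28 and -0.39 in KO, so the groups overlapped (difference -0.16, SE 0.14). Col5a3 had 1.95, 2.23 and 2.56 in WT and 1.89, 1.78 and 2.57 in KO, also overlapping (difference -0.17, SE 0.26). Col5a2 lies beside Col3a1 on chromosome 1, and these neighbours had differences of opposite sign.

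The brightest collagen probes carry a limit of scale. Col1a1 gave 274532, 242990 and 264806 intensity units in WT and 226824, 293555 and 295362 in KO before scaling, and these values overlapped. The unscaled log2 difference was 0.05 for Col1a1, 0.18 for Col1a2 and -0.07 for Col3a1. These 3 genes, with Dcn and Sparc, were among 577 genes with a mean processed signal of 200000 or more. Of those 577 genes 96.7% had a higher scaled signal in KO, with a median of 0.34, and for 70.2% all KO values lay above all WT values, yet none passed in either direction. The lack of overlap of Col1a1, Col1a2 and Col3a1 was thus shared by most genes of that brightness. The Sparc probe ranged only from 481016 to 503968 over the 6 arrays, 1.05-fold, while the 75th percentile that scales it ranged 1.75-fold. No spot was saturated on any array, and the brightest spot reached 67.9% to 70.2% of the scanner's saturation value. Col5a1, at 24660 to 41987 units, was outside this brightest range, as were Col12a1, Mfap2 and Mfap4. Their unscaled log2 differences were also smaller, 0.27 for Col5a1, 0.30 for Col12a1, 0.38 for Mfap2 and 0.43 for Mfap4. Before scaling, the groups overlapped for Col5a1, Mfap2 and Mfap4 and not for Col12a1. Leaving out the 5 brightest members turned the fibrillar median from 0.48 to -0.16, a median of Col5a1, Col5a2 and Col5a3 alone. The part of spot brightness in the collagen I and III differences was not tested.

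**Figure D2:**
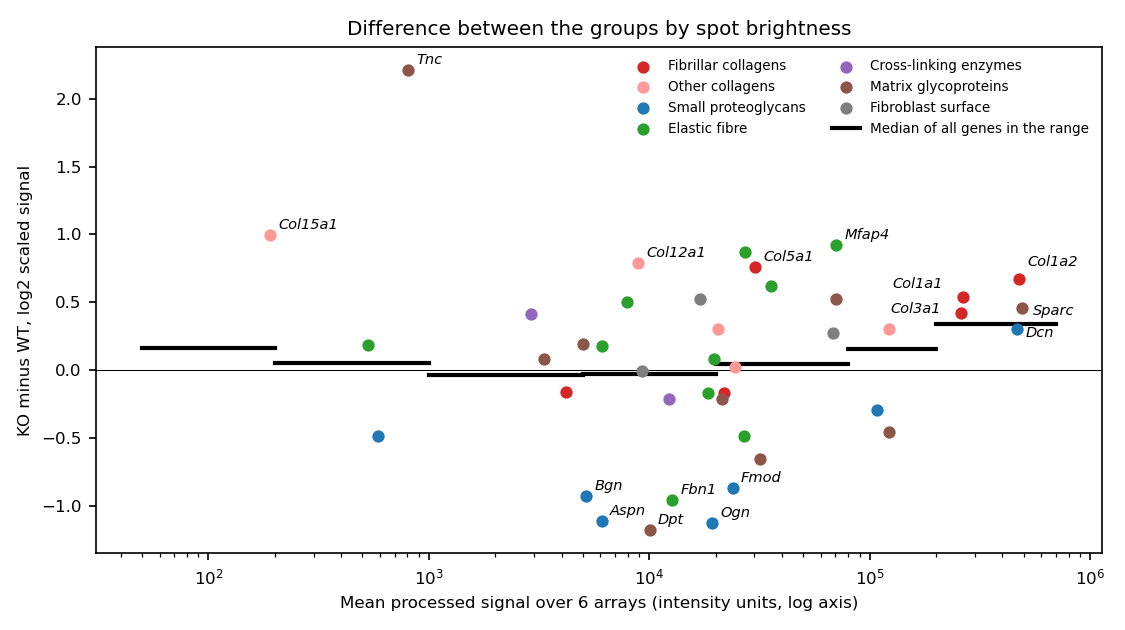
KO minus WT difference in log2 scaled signal against mean processed signal over the 6 arrays (log axis, intensity units), a point for each measured gene, coloured by role class; black lines are the median of all genes in that signal range. The line rises to 0.34 above 200000 units, where Col1a1, Col1a2, Col3a1, Sparc and Dcn lie, while Col5a1 (0.76) and Mfap4 (0.92) lie above the line at lower signal.

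The other collagens were 5 measured genes, all with a higher KO mean in the reported fit, and none passed. Their signs depended on the scaling. Unscaled log2 differences were -0.19 for Col6a1, -0.19 for Col6a2 and -0.47 for Col14a1, but 0.30 for Col12a1 and 0.51 for Col15a1. Col6a1 lay between 80000 and 200000 units of mean signal, where 76.2% of 884 genes had a higher scaled signal in KO. Col12a1 encodes a collagen that binds along fibril surfaces, and on the brightest probes it alone did not overlap (difference 0.79, SE 0.17, limma adjusted p 0.068). On slide 1 it was 0.60 higher in KO 1. Col6a1, a chain of the beaded filaments of collagen VI and the brightest gene of this class, had scaled signals of 4.42, 4.402 and 4.67 in WT and 4.43, 4.58 and 5.39 in KO. KO 7 alone exceeded every WT value. Its neighbour Col6a2 had the same difference (0.30 for both), and within slide 1 these differences were -0.07 and -0.09. Col14a1, another fibril-associated collagen, had a difference of 0.02 (SE 0.21), which turned to -0.11 with the array median as the scale. Its dimmer probe gave -0.47 (SE 0.16, limma adjusted p 0.138 in a fit over all kept probes), with all KO values below all WT values.

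Col15a1, whose product is a collagen of the basement membrane zone, had the largest difference of this class and its probes disagreed. Its brightest probe had scaled signals of -6.36, -4.63 and -4.56 in WT and -4.73, -4.25 and -3.58 in KO, a difference of 0.996 (SE 0.54). WT 1 lay far below the other WT arrays, and the groups overlapped. The other probes gave -0.30 and -0.32, and they overlap each other in the genome. The brightest probe is printed because its sequence shows the triple-helix code: the collagen helix is built of residue triplets that each hold a glycine, and the GG that starts a glycine codon recurs every 9 bases, 6 times, marked in capitals.
Col15a1 probe (mm9, chr4:47283786-47283845, plus strand): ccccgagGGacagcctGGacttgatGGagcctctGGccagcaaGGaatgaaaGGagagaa
It was the only 1 of the 54 member probes with such a run. Whether a probe made of helix repeats also binds other collagen transcripts was not tested, and no direction is given for Col15a1.

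The small proteoglycan genes had the largest median difference in size among the classes. Of 7 measured, 6 had a lower KO mean (44.9% of all genes did) and 5 lay wholly below WT (14.1% of all genes did), although none passed. Their median difference was -0.87, and -0.32 within slide 1, where KO 1 was below the WT mean for the same count of 6 genes. Ogn, which encodes osteoglycin, had scaled signals of 2.69, 2.68 and 2.24 in WT 1, WT 2 and WT 3 and 2.23, 1.32 and 0.69 in KO 1, KO 2 and KO 7. KO 1 sat just under WT 3, and KO 7 was the lowest by a wide margin. The difference was -1.13 (SE 0.38, limma adjusted p 0.141), and -0.31 on slide 1. Without KO 1 it was -1.54 and passed (limma adjusted p 0.0431), with slide and group then the same split of the arrays.

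Aspn (asporin, -1.11), Bgn (biglycan, -0.93), Fmod (fibromodulin, -0.87) and Prelp (-0.48) were the other genes whose groups did not overlap. Fmod had a narrow WT range, 2.72, 2.70 and 2.76, against 2.37, 1.69 and 1.51 in KO. Its limma adjusted p was 0.0971, and 0.023 without KO 1. For Ogn, Aspn, Bgn and Fmod KO 1 was the highest KO array and KO 7 the lowest. Lum (lumican) had a difference of -0.29 and overlapped. Dcn, decorin, the brightest of the class, had 6.24, 6.52 and 6.503 in WT and 6.63, 6.51 and 7.04 in KO. Its difference was 0.31 (SE 0.18), or -0.13 under quantile normalization, and its groups overlapped. Dcn was in the brightest range described for collagen I, and its unscaled log2 difference was -0.18. Unscaled, the Ogn difference was -1.61.

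Several of these genes are neighbours in the genome. In RefSeq gene order Ecm2, Aspn, Omd and Ogn lie side by side on chromosome 13, and all 4 had negative differences, -0.34, -1.11, -0.71 and -1.13. Prelp and Fmod, adjacent on chromosome 1, had -0.48 and -0.87. The Dcn and Lum pair on chromosome 10 split in sign, 0.31 and -0.29, and their neighbours Kera and Epyc had -0.21 and -2.03. The Epyc groups overlapped and its limma adjusted p was 0.243.

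The elastic fibre genes had no shared direction: 7 were higher and 3 lower in KO, and none of the 10 passed. The median was 0.18, equal to that of all members. Fbn1, which encodes the fibrillin-1 of microfibrils, had scaled signals of 2.16, 1.66 and 1.77 in WT and 1.10, 0.68 and 0.93 in KO. All KO values were lower, including KO 1 on slide 1 (-0.76), with a pooled difference of -0.96 (SE 0.19, limma adjusted p 0.056). Fbn1 missed the threshold and passed with the array median as the scale (limma adjusted p 0.0437), array weights, an intensity trend, normexp background or a filter on all 6 arrays. Mfap4 and Mfap2, which encode microfibril-associated proteins, went the opposite way. Mfap4, the brightest of the class, had 3.13, 3.38 and 3.67 in WT and 3.72, 4.39 and 4.83 in KO, a difference of 0.92 (SE 0.30, limma adjusted p 0.129). Mfap2 had a difference of 0.87 (SE 0.31, limma adjusted p 0.147) on its brightest probe and 0.52 on the other. Mfap5 overlapped at -0.49. Elastin itself (Eln) differed by 0.17 (SE 0.28), with a 95% interval from -0.49 to 0.84. The fibulins Fbln1, Fbln2 and Fbln5 differed by 0.50, 0.62 and 0.08, Emilin1 by 0.18 and Efemp1 by -0.17, all with overlapping groups. A dimmer Fbln1 probe gave -0.07.

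The fibrillar collagens were then set against the elastic fibre genes. For each array the mean over fibrillar genes minus the mean over elastic fibre genes was taken, after each gene was set to its WT mean. A log2 shift common to all genes of an array cancels in this contrast, but a shift that varies with brightness does not. The contrast was 0.05, -0.03 and -0.02 in WT and 0.11, 0.32 and 0.09 in KO, a KO minus WT difference of 0.17. This exceeded the standard deviations of 0.04 in WT and 0.13 in KO, and the 3 KO arrays lay above the 3 WT arrays. With quantile normalization the difference was 0.031. Without the 5 brightest members it was -0.03, so its sign rested on them. Against the small proteoglycan genes the same contrast was -0.32, 0.04 and 0.28 in WT and 0.39, 1.09 and 1.49 in KO. The difference of 0.99 was larger than the standard deviations of 0.30 in WT and 0.56 in KO, and it was 0.95 without the brightest members. KO 1, on the slide of the WT arrays, was the KO array nearest to WT. No p is given for these contrasts, because the genes were chosen with earlier results known.

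**Figure D3:**
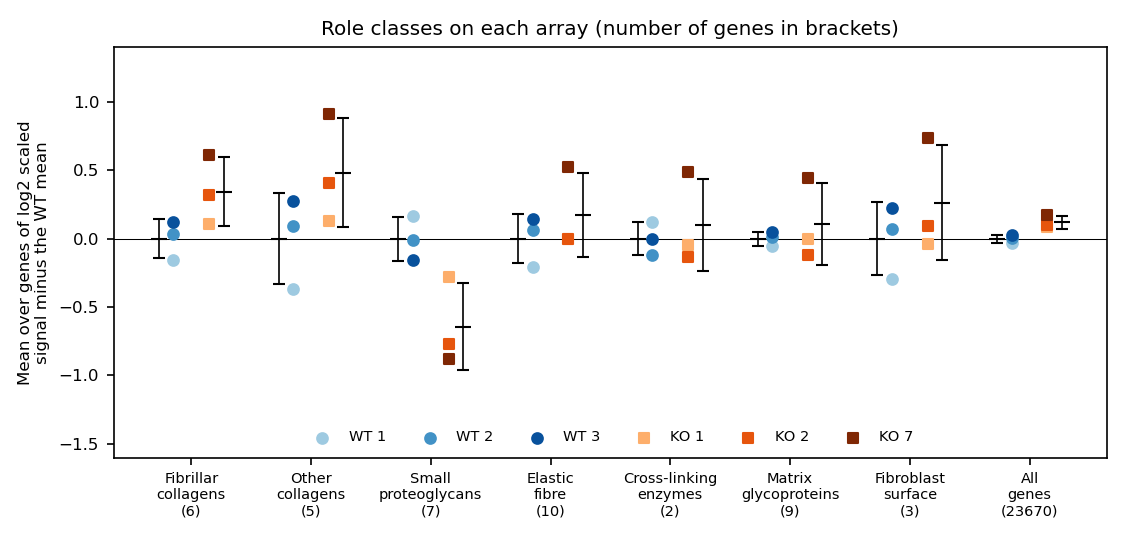
Mean over the genes of each role class of log2 scaled signal minus the WT mean, on each array; circles are WT mice, squares are KO mice, and bars are the group mean and standard deviation of 3 mice. Small proteoglycan genes are the class with all 3 KO arrays below all WT arrays (-0.28, -0.77 and -0.88 against -0.16 to 0.17), and KO 7 is the highest array in each of the other classes shown.

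The matrix glycoproteins held the gene that fell and the gene with the largest difference. Dpt encodes dermatopontin, a small dermal protein that binds decorin and collagen fibrils. Its scaled signals were 1.52, 1.77 and 1.60 in WT 1, WT 2 and WT 3 and 0.77, 0.08 and 0.50 in KO 1, KO 2 and KO 7. All 3 KO values lay below the lowest WT value, KO 1 on the WT slide included. Dpt fell 2.27-fold (log2 difference -1.18, SE 0.20, limma adjusted p 0.0385), lower in 3 of 3 KO mice. Its call was lost with slide as a block (difference -0.87, adjusted p 0.382). It was also lost without KO 2 (0.0846), KO 7 (0.0726), WT 1 (0.0837), WT 2 (0.157) or WT 3 (0.109), each a limma adjusted p.

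Tnc encodes tenascin-C, a glycoprotein of wound and remodelling matrix. It had scaled signals of -3.68, -3.78 and -3.67 in WT and -2.34, -2.22 and 0.07 in KO. KO 1 and KO 2 were close to each other and well above WT, and KO 7 lay far above both. The difference was 2.21 (SE 0.62, limma adjusted p 0.104), and the other Tnc probe gave 2.56. Without KO 7 the difference was 1.43 and it passed (limma adjusted p 0.00821). On slide 1 KO 1 was 1.37 above the WT mean.

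Among the remaining glycoproteins, Thbs1 (thrombospondin 1) and Fn1 (fibronectin) did not overlap and were lower, with differences of -0.65 (SE 0.19, limma adjusted p 0.108) and -0.45 (SE 0.14, limma adjusted p 0.119). Postn (periostin) did not overlap and was higher by 0.53 (SE 0.17, limma adjusted p 0.128). Unscaled, the log2 differences of Thbs1, Fn1 and Postn were -1.14, -0.94 and 0.04. Thbs2, Vcan and Tnxb (tenascin-X) overlapped, with differences of 0.19, 0.08 and -0.21. Sparc (osteonectin, a collagen-binding protein), the brightest of this class, had 6.21, 6.57 and 6.51 in WT and 6.77, 6.87 and 7.03 in KO. These groups did not overlap, but the difference of 0.45 came from a probe at nearly constant intensity, as given above, and its dimmer probe gave 0.00. No direction is given for Sparc.

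On the brightest probe of each gene, the cross-linking enzymes and the fibroblast surface genes had overlapping groups. Lox, which encodes lysyl oxidase, had scaled signals of -0.60, -1.28 and -0.99 in WT and -0.69, -0.72 and -0.23 in KO (difference 0.41, SE 0.23). Loxl1, its paralogue in elastic fibre assembly, had 1.33, 1.52 and 1.46 in WT and 1.08, 0.92 and 1.67 in KO (difference -0.21, SE 0.21). On these probes the KO 7 value of each was the highest of its group. Both genes had a dimmer probe whose groups did not overlap. In a fit over all kept probes it gave 0.71 for Lox (SE 0.31, limma adjusted p 0.20). For Loxl1 it gave -0.78 (SE 0.16, limma adjusted p 0.0585), with KO lower. Pdgfrb, a growth factor receptor of fibroblasts and pericytes, had 1.15, 1.61 and 1.86 in WT and 1.73, 1.89 and 2.56 in KO (difference 0.52, SE 0.28). Thy1, a fibroblast surface glycoprotein, had 3.49, 3.66 and 3.83 in WT and 3.52, 3.97 and 4.31 in KO (difference 0.28, SE 0.23), and Pdgfra differed by -0.01 (SE 0.27). Across the 42 members, KO 7 was the highest KO array for 30 genes and the lowest for 7.

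Genes that serve the matrix were counted by list, beside 1.98% of all genes that passed higher and 0.389% that passed lower. Of 27 genes of collagen processing, from prolyl and lysyl hydroxylases to procollagen proteinases, none passed, and the median was 0.05. At an unadjusted p under 0.05, limma gave 1 of them higher and 5 lower, against 16.9% and 9.73% of all genes. The smallest p belonged to Plod1, a lysyl hydroxylase (-0.54, SE 0.12), and P3h2, a prolyl 3-hydroxylase (-0.73, SE 0.18). In the list of other skin collagens 1 of 19 fell and none rose: Col28a1, -1.17 (SE 0.20, limma adjusted p 0.0439). The median of this list was -0.19. Limma gave 3 of the 19 higher and 9 lower at an unadjusted p under 0.05, against the same shares of all genes. All KO values lay above WT for 3 and below WT for 8, against 21.4% and 14.1% of all genes. Col17a1, the gene of BP180, had 4.41, 4.39 and 4.47 in WT and 4.48, 4.31 and 4.10 in KO. The groups overlapped (difference -0.13, SE 0.14, limma adjusted p 0.576), and which part of the gene the probe reads relative to the NC16A segment was not examined.

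Of 25 genes of TGF-beta signalling, 1 rose, Ltbp2, a latent TGF-beta and fibrillin binding protein (0.92, SE 0.17, limma adjusted p 0.049). The list's median was -0.13. Of 24 genes of matrix turnover, 1 rose, Mmp13, a collagenase. It had -5.39, -4.92 and -5.58 in WT and -3.22, -3.93 and -3.30 in KO (difference 1.82, SE 0.26, limma adjusted p 0.0222). KO 1 was as high as the KO mice on the other slide, and the slide 1 difference was 2.08. Of 13 matrix receptors, 1 fell, the integrin gene Itga8 (-0.95, SE 0.16, limma adjusted p 0.0399). Of 20 other proteoglycan and basement membrane genes, 1 rose, Podnl1, a small leucine-rich family member. Its values were -6.17, -5.90 and -5.66 in WT and -4.15, -3.93 and -3.13 in KO (difference 2.17, SE 0.29, limma adjusted p 0.0166). With slide as a block none of these 5 genes passed.

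Ear skin also holds cartilage, fat, muscle and epidermis, and the markers of these tissues were counted in the same way; no list was tested. The 10 adipocyte markers all had negative differences (median -0.90), with -1.31 for Adipoq and -1.50 for Lep. Of 11 skeletal muscle markers 10 had negative differences (median -0.65), with -0.54 for Myh1 and -0.65 for Mb. None of these passed, and in both lists the array means of the groups overlapped. Cartilage markers had a median of -0.41, with 10 of 14 lower. Their mean relative to WT ran from -0.10 to 0.11 over the WT arrays and from -0.57 to -0.21 over the KO arrays. Col9a1, a cartilage collagen, had a difference of -1.12 (SE 0.26, limma adjusted p 0.0747), and Comp had -0.62 (SE 0.13, limma adjusted p 0.0694). Of the 15 measured of 16 other fibroblast markers, 9 were lower, with a median of -0.07, and the smallest p belonged to Dpp4 (-0.51) and Pdpn (0.53). Keratinocyte markers had a median of 0.41, with 8 of 10 higher. Their array means ran from -0.10 to 0.06 in WT and from 0.28 to 0.55 in KO, and the smallest p belonged to Dsg3 (1.10, SE 0.21, limma adjusted p 0.0514) and Krt1 (1.16, SE 0.29, limma adjusted p 0.0874). Endothelial markers Tek and Vwf had -0.70 and 0.53, and 7 of 10 markers were higher (median 0.20). The pericyte and smooth muscle markers Rgs5 and Kcnj8 had -0.71 and -0.38, but 6 of 10 were higher (median 0.10). The dermal papilla markers Sox2 and Crabp1 had -1.16 and 0.66, and 7 of 10 were lower (median -0.18). The macrophage markers Cd68 and Lyz2 had -1.05 and -1.41, while 3 of 10 were higher (median -0.16). The macrophage mean on KO 7 was 0.34 above the WT mean. None of these genes passed. In whole ear skin fewer cells of a type and less RNA per cell cannot be told apart. The part of these other tissues in the small proteoglycan and collagen values was not tested.

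**Figure D4:**
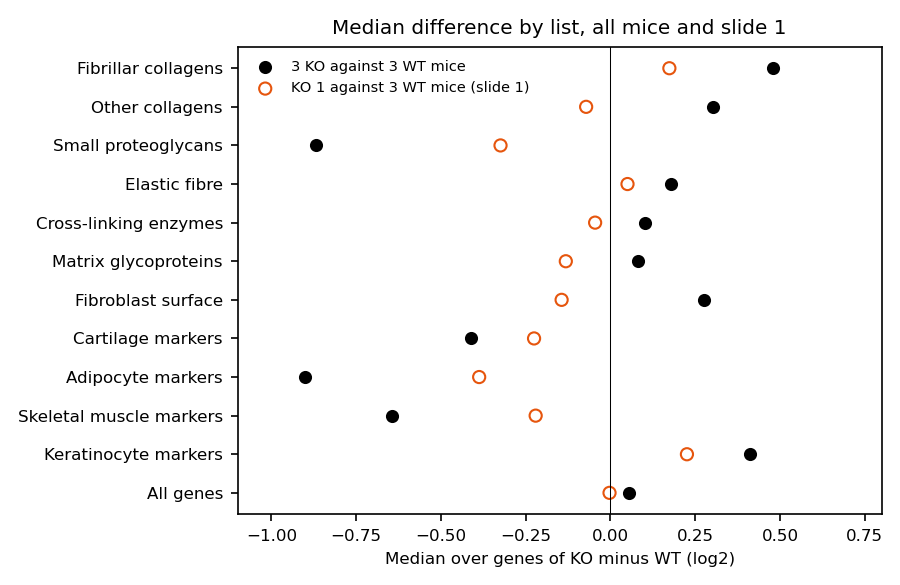
Median over the genes of a list of the KO minus WT difference (log2), for 3 KO against 3 WT mice (filled) and for KO 1 against the 3 WT mice of the same slide (open). The small proteoglycan median moves from -0.87 to -0.32 and the fibrillar collagen median from 0.48 to 0.17, and the medians of other collagens, cross-linking enzymes, matrix glycoproteins and fibroblast surface genes change sign.

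Within slide 1 the classes ran as follows. KO 1 gave a median of 0.17 for fibrillar collagens, -0.32 for small proteoglycans, 0.05 for elastic fibre genes, -0.07 for other collagens, -0.05 for cross-linking enzymes, -0.13 for glycoproteins and -0.14 for surface genes. Fitted with slide as a block, 0.668% of all genes passed higher and 0.0422% lower, and no member passed. The fibrillar genes in KO 1 differed from the WT mean by 0.19 for Col1a1, 0.33 for Col1a2 and 0.16 for Col3a1, where all genes of 200000 or more had a slide 1 median of 0.20. The less bright Col5a1, Col5a2 and Col5a3 had 0.41, -0.10 and -0.36, so the positive fibrillar median in KO 1 rested on the bright probes. Among the small proteoglycans KO 1 had -0.42 for Aspn, -0.48 for Bgn, -0.35 for Fmod, -0.32 for Prelp and -0.31 for Ogn. It had 0.33 for Mfap4 and 0.29 for Mfap2, and 0.33 for Sparc and 0.49 for Postn. Fn1 and Thbs1 had -0.41 and -0.44. Most of these were smaller than the pooled differences, which also hold the mice on slide 2.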

How the data were processed

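Groups and replicate numbers came from the sample titles. The deposited scanner files and the deposited series matrix hold the same intensity values, equal for all 43340 features, per the file headers made with Agilent Feature Extraction 10.7.3.1 (protocol GE1_107_Sep09, probe positions on mm9), with background subtracted and no normalization between arrays. Outlier spots (170 to 249 per array) were left out and spots of a probe averaged. Log2 intensity minus the array's 75th percentile was tested with limma 3.58.1 in R 4.3.3 (lmFit, eBayes, two-sided, no covariate, residual degrees of freedom 4), for the brightest kept probe of each gene. Names and gene order came from RefSeq (GRCm38.p6), which named 26112 probes through an accession, 3121 through a symbol and 910 through a synonym, while 9232 kept the file's name.

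The members and lists were chosen with earlier results of these data known. Each array's values are given for every fibrillar collagen, every member that passed, and the largest difference and brightest member of a role class; a few others were named after their values were seen. In a pathway or marker list up to 3 genes that passed are named, otherwise the 2 with the smallest p. No gene passed in the macrophage (median -0.16), endothelium (0.20), smooth muscle and pericyte (0.10) and dermal papilla (-0.18) marker lists. A further marker list, in which 1 gene passed, is not reported here. On data made with known changes in 200 of 23670 genes, the fit recovered 39% of 2-fold and 82% of 4-fold changes, with 9 false calls. The made data held independent noise for each gene and no shift by slide or array brightness. These figures therefore do not cover false calls from such shifts. Only 3 mice per group limit the precision. Alternatives are given in the closing section. Steps also used Python 3.11.15, pandas 2.3.3, numpy 2.4.6 and matplotlib 3.10.9.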

Additional observations from a re-analysis of the deposited data

How the results depend on the processing

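Slide and group overlap, 3 mice per group leave wide errors, and a scaled signal near the top of the range moves with the array's own brightness. Scaling by the array median shifted the median of all genes by -0.14. Over all genes 468 passed higher and 92 lower. These counts were 1570 and 471 at an adjusted p under 0.10, 4546 and 3081 with array weights, 269 and 27 with no filter, 155 and 8 on slide 1 alone, 158 and 10 with slide as a fixed block. With normexp background 859 passed higher, and with the array median 149 passed lower. Members passing higher (0 as reported) were 1 at an adjusted p under 0.10, 10 with array weights, 1 with an intensity trend and 1 with normexp. Members passing lower (1 as reported) were 3 at an adjusted p under 0.10, 12 with array weights, and 2 each with the array median, an intensity trend, a filter on all 6 arrays or normexp. None passed lower with no filter, on slide 1 or with slide as a block, a count of 0 by limma where 8 had an unadjusted p under 0.05 in the reported fit. Leaving out each mouse gave 183 to 717 genes higher and 18 to 254 lower, and 0 to 1 members higher and 0 to 3 lower. Fbn1 passed with the array median (limma adjusted p 0.0437), array weights (0.00553), an intensity trend (0.0333), a filter on all 6 arrays (0.0452) and normexp (0.033). Dpt had 0.0812 with no filter and 0.0282 to 0.157 as each mouse was left out.

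The fibrillar minus elastic contrast was 0.30 with array weights, 0.031 with quantile normalization and -0.030 without the 5 brightest members, an alternative chosen after seeing the data, and 0.10 to 0.21 as each mouse was left out. The fibrillar minus small proteoglycan contrast was 0.39 on slide 1 or with slide as a block, and 0.74 to 1.29 as each mouse was left out. The fibrillar median was 0.18 with quantile normalization, 0.17 on slide 1 or with slide as a block, -0.16 without the brightest members, and 0.36 to 0.63 as mice were left out. The small proteoglycan median was -0.32 and the fibroblast surface median -0.14 on slide 1 or with slide as a block. As mice were left out the small proteoglycan median ran from -1.13 to -0.70, the surface median from 0.09 to 0.49, the other collagen median from 0.01 to 0.50, the elastic fibre median from 0.01 to 0.32, the cross-linking median from -0.09 to 0.22 and the glycoprotein median from -0.09 to 0.18.

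Leaving out single mice aside, signs turned for 11 genes, with reported differences from -0.01 for Pdgfra to 0.45 for Sparc. Col14a1 was -0.11 with the array median, -0.050 with array weights, -0.22 as the mean of its probes, -0.017 with quantile normalization and -0.24 on slide 1 or with slide as a block. Fbln5 was -0.054 with the array median, -0.12 with array weights, -0.012 with normexp and -0.12 on slide 1. Thbs2 was -0.032 with array weights and -0.13 on slide 1. Vcan was -0.055 with the array median and -0.11 on slide 1. Slide 1 also turned Col6a1 (-0.072), Col6a2 (-0.091) and Thy1 (-0.14). Quantile normalization turned Dcn (-0.13) and Sparc (-0.0099), array weights Emilin1 (-0.034), and normexp Pdgfra (0.0051). Leaving out mice gave Col14a1 -0.15 to 0.18, Efemp1 -0.29 to 0.059, Eln -0.032 to 0.42, Fbln5 -0.13 to 0.19, Pdgfra -0.28 to 0.18, Thbs2 -0.087 to 0.35 and Tnxb -0.46 to 0.0033. The causes were not tested.

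Whether same-numbered mice were paired could not be settled, because only 2 numbers occur in both groups. Their correlations were 0.083 and 0.055, beside 0.077 and 0.037 for crossed numbers. With the replicate block no gene passed, 0 higher and 0 lower, members included, and Col14a1 was -0.044, Fbln5 -0.11 and Thbs2 -0.056. Of 588 settings of single members, leaving out mice aside, 527 kept direction and side of the threshold, 27 passed anew, 4 lost the call and 30 changed sign. These counts do not measure robustness. The series matrix holds the reported values, and an intensity trend cannot change a difference. Slide 1 alone gave the same differences as the slide block. Size was not counted, and 41 members had not passed in the reported fit. Col1a1 thus counted as kept at 0.19 on slide 1, beside 0.54 as reported.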
